A study of Mus musculus with 6 samples.

Results

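The genes described here encode 36 proteins that make ribosomes: subunits and cofactors of RNA polymerase I, the proteins of the particles that modify ribosomal RNA, and factors that process it and assemble both ribosomal subunits. They were taken from the table by symbol, from a list of the pathway, and all 36 were found among the 38720 rows of the deposited table. The study asked how loss of claudin 18, a tight junction protein of the gastric epithelium, changes gene expression in the stomach. Wild-type mice (Cldn18 +/+) were compared with Cldn18 knockout mice (Cldn18 -/-), both of the B6:129S5 strain. Unfixed stomachs were frozen and sectioned, RNA came from the neck region of the corpus cut out with a laser, and 3 libraries were sequenced per group. The sample labels give an age of 7 weeks and the design text an age of 7 days, and which exons were removed is not stated in the sources used here.

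A ribosome starts in the nucleolus, where RNA polymerase I transcribes one long precursor of most ribosomal RNAs. Small nucleolar RNAs, bound by a fixed set of proteins, guide methylation (box C/D particles) and pseudouridylation (box H/ACA particles) of this precursor. It is cut by large processing complexes while ribosomal proteins are added, and the transcription factor MYC is a known activator of many genes of this pathway. In the gastric gland the neck region lies between the surface and the base. It holds mucous neck cells and, at the adjoining isthmus, the dividing cells from which the other gland cells arise.

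The libraries held 37673283 to 52842813 reads on genes. Cldn18 itself had 30498, 21210 and 23241 normalized counts in wild-type libraries 1, 2 and 3 and 13035, 16798 and 15818 in the knockout libraries, so the groups did not overlap, although the gene was still read. Wild-type libraries 2 and 3 stood apart from wild-type library 1: the summed level of 12 stratified squamous markers was 783, 9768 and 3544 in wild-type libraries 1, 2 and 3, against 635 to 785 in the knockout. The 20 markers of dividing cells were all higher in the knockout, with sums of 20516 to 23649 in wild-type and 58673 to 74629 in the knockout, and none was at 0. Of 16 parietal cell markers 13 were lower, their sum falling from between 502074 and 655826 to between 74301 and 81457, and 7 of 9 chief cell markers (8 tested) were lower. Mucous neck cell markers were mixed, with 4 higher and 1 lower of 6. Of 7 surface pit cell markers 4 were lower and 1 higher, with sums of 939747 to 1580205 in wild-type and 355858 to 612679 in the knockout. Among other cell types the same test called 7 of 8 endothelial markers lower, 4 of 7 macrophage and 3 of 7 fibroblast markers higher, and 5 of 6 red blood cell markers (5 tested) lower. It also called 4 of 7 smooth muscle markers lower, and 4 of 8 enteroendocrine markers higher and 2 lower. Over all genes tested 23.3% were called higher and 21.5% lower, so a count such as 2 of 8 lower is near the background. The groups thus differed in their marker content, and its part in the results below was not tested.

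Nearly all of the ribosome biogenesis genes were higher in the knockout. Of the 36 genes, 34 rose (limma, adjusted p from 4.08e-06 to 0.00566), 0 fell, and 2, Nop10 and Rrp12, were not called. The count lower was also 0 at an unadjusted p under 0.05 and with edgeR or DESeq2 on recovered reads. The background was high, because 23.3% of the 17432 genes tested were called higher and 21.5% lower, 44.7% in all. The median log2 difference of the 36 genes was 1.33, a 2.51-fold rise, with quartiles of 1.10 and 1.53, against a median of -0.02 and quartiles of -0.71 and 0.57 over all genes tested. In 30 of the 36 the called rise reached a log2 difference of 1, which 11.2% of all genes did. In these bulk samples a change in the number of cells of a type and a change in RNA per cell cannot be told apart, so the values do not say whether each cell held more of these transcripts. The labels do not say whether each library came from its own animal, so the p-values reflect the spread between samples, which may be technical.

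All 3 knockout libraries stood above all 3 wild-type libraries for 34 genes, which held for 28.1% of all genes tested, while 27.1% of all genes stood below in this way and no member did. For 21 of the 36 genes the lowest knockout value was at least 2 times the highest wild-type value, a share that was not counted over all genes tested. Relative to the wild-type mean, the median gene stood at a log2 value of 1.46, 1.27 and 1.33 in knockout libraries 1, 2 and 3 and at 0.13, -0.02 and -0.09 in wild-type libraries 1, 2 and 3. Knockout library 1 had the highest value of its group for 28 genes and wild-type library 1 for 25. Without wild-type libraries 2 and 3, which stood apart above, the median difference of the 36 genes was 1.29, with 0.44 for Polr1c and 0.75 for Rrp12. That fit leaves 1 wild-type library and holds no wild-type spread, so its p-values are not given. As a share of reads outside Gm26924, the locus with the most reads, the 36 genes together took 0.167%, 0.175% and 0.181% in wild-type against 0.516%, 0.491% and 0.458% in the knockout (exact permutation test, two-sided, p = 0.1; 3 against 3 libraries cannot go lower). That share does not depend on the scaling of the deposited values, and its groups did not overlap.

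**Figure D1:**
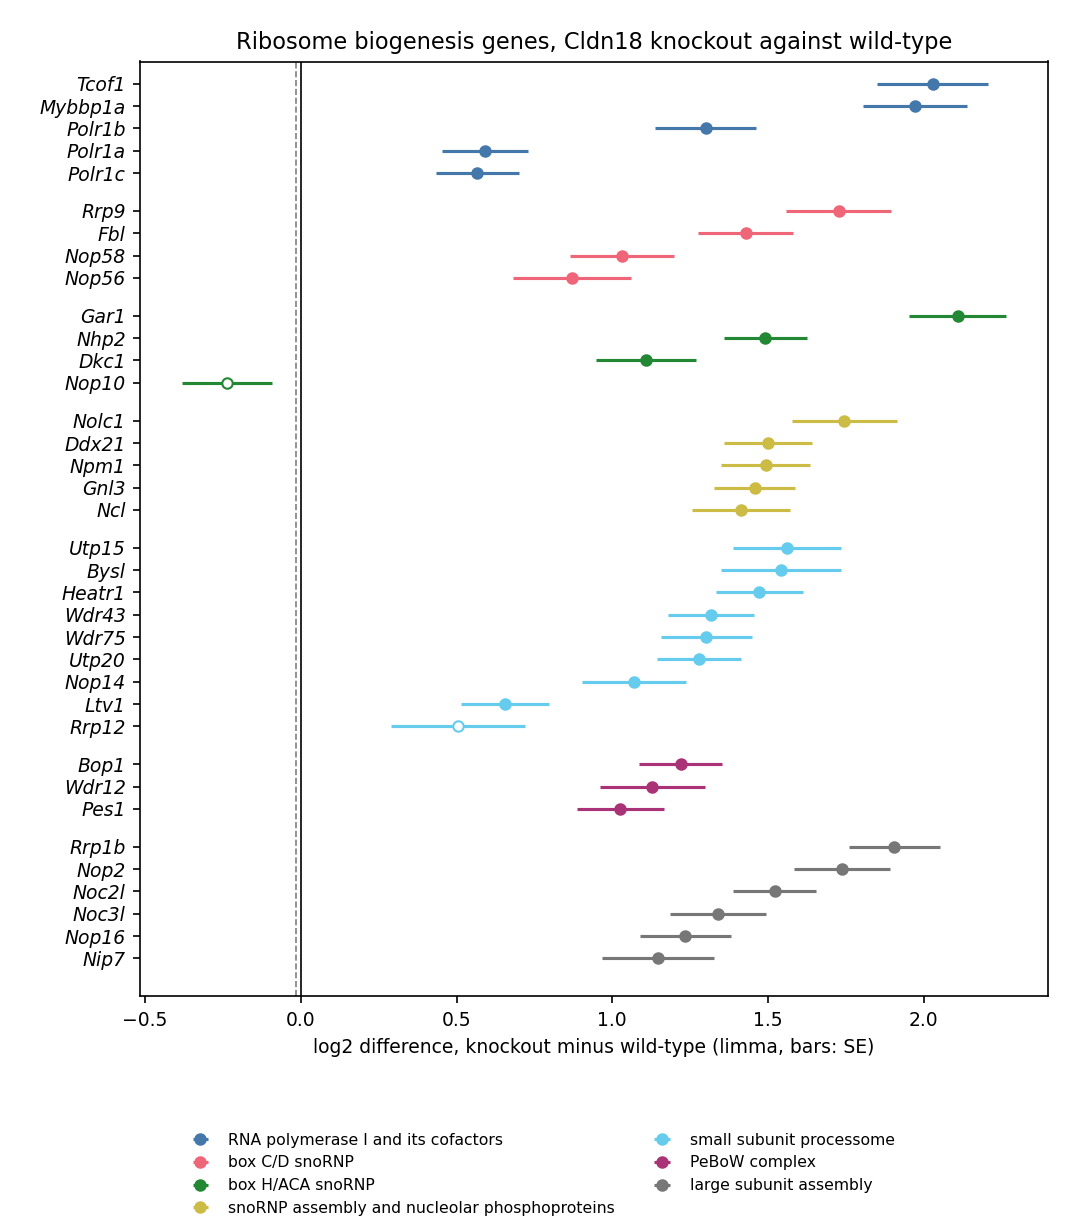
The log2 difference between knockout and wild-type is plotted for each of the 36 genes, grouped by role, with bars for the SE of the limma fit and open points for the 2 genes not called. Points run from -0.24 for Nop10 to 2.11 for Gar1, and most lie between 1 and 2.

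**Figure D2:**
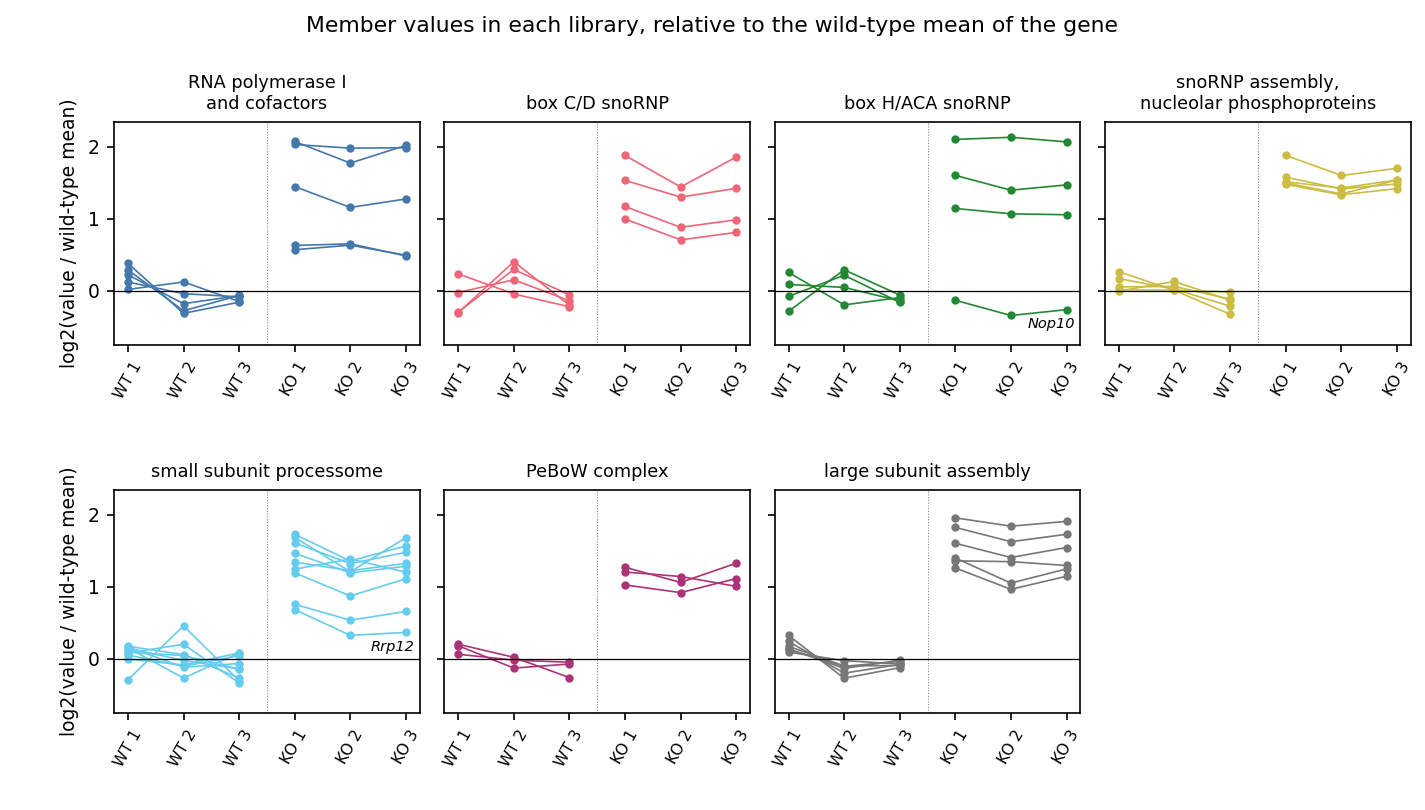
Each point is 1 gene in 1 library, as the log2 ratio of its value to the wild-type mean of the gene, with 1 panel per role; lines join the points of a gene within a group and show no order. Points lie near 0 in the wild-type libraries, and in the knockout libraries all genes but Nop10 and Rrp12 lie above their wild-type points.

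Within the RNA polymerase I group all 5 genes rose, but by unequal amounts. Treacle, encoded by Tcof1, links transcription of the ribosomal RNA genes with early processing, and it had 1038, 641 and 714 normalized counts in wild-type against 3258, 3146 and 3158 in the knockout. Its log2 difference of 2.03 ± 0.18 (SE; limma adjusted p = 1.35e-05) was the second largest of the 36. Mybbp1a, a nucleolar protein that associates with RNA polymerase I, had 2020, 1362 and 1578 counts in wild-type against 6954, 5646 and 6699 in the knockout, a difference of 1.97 ± 0.17 (adjusted p = 1.07e-05). Both genes thus stood near 4-fold above wild-type, with no overlap. The subunits of the enzyme moved less. Polr1b, the second largest subunit, had 584, 442 and 478 counts in wild-type against 1366, 1117 and 1212 in the knockout, a difference of 1.30 ± 0.16 (adjusted p = 0.000126). Polr1a, the largest subunit, had 998, 1072 and 888 in wild-type against 1523, 1548 and 1377 in the knockout, a difference of 0.59 ± 0.14 (adjusted p = 0.00566). Polr1c, which is shared with RNA polymerase III, had 1149, 1027 and 996 in wild-type against 1569, 1639 and 1488 in the knockout, a difference of 0.57 ± 0.13 (adjusted p = 0.00565). The Polr1c difference was 0.44 without wild-type libraries 2 and 3. In the authors' deposited table the adjusted p of Polr1c is 0.0611, so it was not called there. Within a library, the log2 ratio of Tcof1 to Polr1a went from a mean of -0.33 to 1.11 and that of Polr1b to Polr1a from -0.98 to -0.27. Both ratios separated the groups (two-sided exact permutation p = 0.1 each, the smallest possible; 10 such ratios were computed in all).

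Box C/D particles carry the methyltransferase of ribosomal RNA and its partner proteins, and all 4 of the genes listed for them here rose. Fbl encodes fibrillarin, the methyltransferase, and had 1211, 998 and 883 counts in wild-type against 2980, 2537 and 2758 in the knockout, a log2 difference of 1.43 ± 0.15 (adjusted p = 4.52e-05). Rrp9, a protein specific to the particle that guides the first cuts of the precursor, had 416, 470 and 385 in wild-type against 1557, 1150 and 1533 in the knockout, a difference of 1.73 ± 0.17 (adjusted p = 2.65e-05). The other two are the paired scaffold proteins of the particle, and their wild-type values were uneven. Nop58 had 1650, 2487 and 1947 in wild-type against 4561, 3732 and 4014 in the knockout, a difference of 1.03 ± 0.17 (adjusted p = 0.000702). Nop56 had 1138, 1860 and 1223 in wild-type against 2805, 2295 and 2465 in the knockout, a difference of 0.87 ± 0.19 (adjusted p = 0.00373). Wild-type library 2 was the highest of its group for Nop56, Nop58 and Rrp9. Within a library the log2 ratio of Rrp9 to Nop56 went from -1.70 to -0.84 (p = 0.1, exact permutation), while that of Fbl to Nop56 went from -0.43 to 0.13 with 1 wild-type library inside the knockout range (p = 0.2, exact permutation).

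Among the role groups of the 36 genes, the box H/ACA particle gave the widest contrast. It consists of dyskerin, the pseudouridine synthase, and 3 small proteins, and 3 of its 4 genes rose while the fourth was not called. Gar1 lies on chromosome 3 (129824912 to 129831396, minus strand) and Nop10 on chromosome 2 (112261926 to 112263269, plus strand; GENCODE vM21, mm10). Gar1 showed the largest rise of all 36 genes, from 547, 400 and 429 counts in wild-type to 1968, 2009 and 1922 in the knockout, a log2 difference of 2.11 ± 0.16 (adjusted p = 4.08e-06). The 3 knockout values lay close together and each was more than 3 times the highest wild-type value. Nhp2 had 1410, 1371 and 1204 in wild-type against 4032, 3495 and 3677 in the knockout, a difference of 1.49 ± 0.13 (adjusted p = 1.43e-05). Dkc1, which encodes dyskerin, had 1010, 1508 and 1183 in wild-type against 2722, 2585 and 2562 in the knockout, a difference of 1.11 ± 0.16 (adjusted p = 0.000341). Nop10, which binds dyskerin directly, had 2094, 2566 and 1978 in wild-type against 2017, 1742 and 1843 in the knockout. Its groups overlapped, with knockout library 1 above wild-type library 3, and the difference was -0.24 ± 0.14 (adjusted p = 0.209). Under upper quartile scaling or quantile normalization Nop10 was called lower, with differences of -0.38 (adjusted p = 0.0265) and -0.37 (adjusted p = 0.0285). The first of these scalings moved the median of all genes to -0.15 and the second to 0.10. Any scaling by 1 factor per library cancels in a ratio within a library. The log2 ratio of Gar1 to Nop10 went from -1.94, -2.68 and -2.20 in wild-type to -0.04, 0.21 and 0.06 in the knockout, that of Nhp2 to Nop10 from a mean of -0.73 to 1.0, and that of Dkc1 to Nop10 from -0.85 to 0.49. In each of these ratios the groups did not overlap (exact permutation p = 0.1). Per kilobase of annotated exon, Nop10 was the highest of the 4 in wild-type, at 1995 normalized counts, with Nhp2 at 1159, Dkc1 at 299 and Gar1 at 268. In the knockout the order changed: Nhp2 stood at 3259, Nop10 at 1684, Gar1 at 1147 and Dkc1 at 637 per kilobase.

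**Figure D3:**
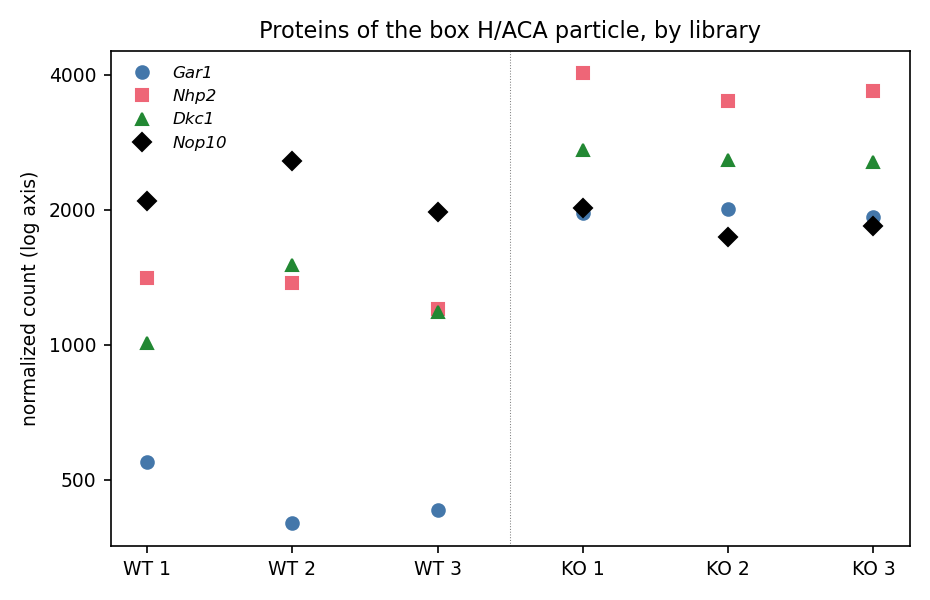
Normalized counts of Gar1, Nhp2, Dkc1 and Nop10 are plotted for the 6 libraries on a log axis, 1 point per gene and library. Gar1, Nhp2 and Dkc1 have no knockout library within the wild-type range, while the values of Nop10, between 1742 and 2566, overlap between the groups.

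The 5 genes for snoRNP assembly and nucleolar phosphoproteins all rose, by log2 differences of 1.41 to 1.75. Npm1 and Ncl encode nucleophosmin and nucleolin, major proteins of the nucleolus. Ncl had 9775, 10711 and 8934 counts in wild-type against 27300, 24682 and 26195 in the knockout, a difference of 1.41 ± 0.16 (adjusted p = 6.02e-05). Npm1 had 6440, 6467 and 5720 in wild-type against 18517, 16544 and 17348 in the knockout, a difference of 1.49 ± 0.14 (adjusted p = 2.31e-05). Per kilobase of exon Npm1 was the highest of the 36 genes in both groups, at 2330 normalized counts in wild-type and 6555 in the knockout. These were the most read of the 36 genes, and their log2 ratio to each other moved little, from 0.66 to 0.58 (exact permutation p = 0.1). Nolc1, a chaperone of small nucleolar particles, had 1261, 1053 and 837 in wild-type against 3867, 3184 and 3410 in the knockout, a difference of 1.75 ± 0.17 (adjusted p = 2.37e-05). Ddx21, an RNA helicase that acts in transcription and processing of ribosomal RNA, had 2591, 2343 and 1987 in wild-type against 6580, 6198 and 6697 in the knockout, a difference of 1.5 ± 0.14 (adjusted p = 1.97e-05). Gnl3, the GTP-binding protein nucleostemin, had 765, 763 and 750 in wild-type against 2144, 1927 and 2202 in the knockout, a difference of 1.46 ± 0.13 (adjusted p = 1.44e-05). In all 5 genes the lowest knockout value was over 2 times the highest wild-type value.

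The small subunit processome is the large complex that forms on the precursor and releases the small subunit RNA. Of the 9 genes grouped with it here, 8 rose. Heatr1, Utp15, Wdr43 and Wdr75 belong to the module that binds first and is also needed for transcription. Heatr1 had 744, 668 and 740 counts in wild-type against 2192, 1794 and 2001 in the knockout, and Utp15 had 458, 342 and 436 against 1367, 1056 and 1223. Wdr43 had 1280, 1244 and 1090 against 3328, 2757 and 2938, and Wdr75 had 563, 463 and 480 against 1275, 1173 and 1258. These 4 differences were alike in size, at 1.47 ± 0.14, 1.56 ± 0.17, 1.32 ± 0.14 and 1.30 ± 0.15 on the log2 scale, in that order. Utp20, a very large scaffold protein, had 694, 656 and 736 in wild-type against 1648, 1818 and 1601 in the knockout, a difference of 1.28 ± 0.14. Nop14, another scaffold of the complex, had 692, 638 and 509 against 1402, 1123 and 1325, a difference of 1.07 ± 0.17. The remaining 3 genes act mostly later, as the small subunit matures and leaves the nucleus, and they were uneven. Bysl had 588, 638 and 440 in wild-type against 1787, 1284 and 1783 in the knockout, a difference of 1.54 ± 0.19 (adjusted p = 0.000123). Ltv1 had 1010, 899 and 828 against 1542, 1323 and 1441, a difference of 0.66 ± 0.14 (adjusted p = 0.00368). Rrp12 had 596, 1003 and 591 against 1173, 915 and 942, a difference of 0.50 ± 0.22 that was not called (adjusted p = 0.082). Wild-type library 2 alone reached the knockout range for Rrp12: without it the difference was 0.76 (adjusted p = 0.00369), and without wild-type libraries 2 and 3 it was 0.75.

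Pes1, Bop1 and Wdr12 form the PeBoW complex, which is needed to process the large subunit RNA, and they moved together. Pes1 had 1312, 1058 and 1100 counts in wild-type against 2356, 2189 and 2507 in the knockout, a log2 difference of 1.03 ± 0.14 (adjusted p = 0.000227). Bop1 had 1115, 1053 and 1032 against 2576, 2227 and 2678, a difference of 1.22 ± 0.13 (adjusted p = 5.31e-05). Wdr12 had 484, 426 and 351 against 969, 928 and 844, a difference of 1.13 ± 0.17 (adjusted p = 0.00041). No library of one group reached the other group for any of the 3 genes. Within a library the log2 ratio of Bop1 to Wdr12 went from a mean of 1.36 to 1.45 (exact permutation p = 0.6). Per kilobase of annotated exon, Wdr12 had the lowest value of the 36 genes in both groups, at 35.1 normalized counts in wild-type and 76.4 in the knockout. That rank depends on the length used, which joins the exons of all its annotated transcripts (11.955 kb).

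The other 6 genes of large subunit assembly all rose, by log2 differences of 1.15 to 1.91. Rrp1b, a nucleolar protein of early assembly, had 425, 352 and 381 counts in wild-type against 1500, 1384 and 1449 in the knockout, a difference of 1.91 ± 0.15 (adjusted p = 5.39e-06). Nop2, a methyltransferase of ribosomal RNA, had 687, 506 and 551 against 2061, 1795 and 1928, a difference of 1.74 ± 0.16 (adjusted p = 1.44e-05). These were the largest rises of the group. Noc2l and Noc3l belong to a family of nucleolar proteins that escort the early large subunit. Noc2l had 1253, 1064 and 1116 in wild-type against 3483, 3036 and 3343 in the knockout, a difference of 1.52 ± 0.13. Noc3l had 409, 338 and 340 against 931, 923 and 890, a difference of 1.34 ± 0.16. The smallest rises came from the other two genes, both for nucleolar proteins bound to the growing subunit. Nop16 had 710, 654 and 633 against 1758, 1381 and 1583, a difference of 1.23 ± 0.15. Nip7 had 777, 515 and 570 against 1488, 1212 and 1374, a difference of 1.15 ± 0.18.

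The authors' deposited table of their own comparison lists all 36 genes and calls 33 of them higher at an adjusted p under 0.05, the exceptions being Polr1c, Nop10 and Rrp12. Over all its genes 2918 were higher and 2025 lower at that threshold, and its median log2 difference over 23086 genes was -0.06. Reads from near-identical copies can blur some values of the 36 genes. By sequence, 20 of the genes have processed pseudogene copies, and 12 have such a copy as a row of the table. The copies matter most for Npm1, which has 12: their rows summed to 333, 2772 and 1172 in wild-type against 131, 120 and 119 in the knockout. With these added to Npm1 its values were 6773, 9239 and 6892 against 18649, 16665 and 17467, and the difference fell from 1.49 to 1.22. Of the 16 genes with no such copy, 15 were higher, with a median of 1.31. A further limit is that the strandedness of the counting is not given, and exons of 16 genes overlap a gene on the opposite strand. The longest overlaps on genes that rose are 598 bases of Noc2l with Samd11, which had at most 36.9 counts in any library, and 361 bases of Bysl with Ccnd3. Ccnd3 itself went from 1239, 1274 and 1119 counts to 2069, 1788 and 2206, so the reads of Bysl and Ccnd3 there cannot be told apart. Of the 20 genes without such an overlap 18 were higher, with a median of 1.32. Introns of 6 genes, Nop56, Nop58, Ncl, Gnl3, Wdr43 and Dkc1, hold 19 small nucleolar RNAs, but none of these rows passed 19.6 normalized counts in any library, too few to compare.

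The genes that rose together were also compared by promoter sequence, because MYC and its partner MAX bind the E-box CACGTG. RefSeq promoters (GRCm38.p6, 250 bases before to 50 bases after the start site, on the strand of the gene) matched 31 of the 36 genes. CACGTG, which reads the same on both strands, was in 6 of the 31, a share of 19.4%: Ltv1, Mybbp1a, Nop2, Pes1, Utp20 and Wdr43. It was in 7.15% of all 32851 promoters of this length, and 11.1% of the 11094 protein-coding genes tested had it in a promoter. The related motif CACGCG, read on both strands, was in 12 of the 31 and 18.7% of the protein-coding genes tested, and Mybbp1a and Pes1 held both. The median GC content was 59.3% for these promoters, 60% for the promoters of protein-coding genes tested and 52.7% for all promoters. Genes with and without the E-box rose: Gar1 has none in this window, and neither has Nop10, which was not called. The promoters of Mybbp1a, Nop2 and Pes1 are shown for genes that differed in the size of their rise (1.97, 1.74 and 1.03), followed by those of Gar1 and Nop10, the extremes of the H/ACA particle. Capitals mark CACGTG, and a match is a description of these letters, not a binding site.
Mybbp1a, chr11:72441077-72441376, plus strand: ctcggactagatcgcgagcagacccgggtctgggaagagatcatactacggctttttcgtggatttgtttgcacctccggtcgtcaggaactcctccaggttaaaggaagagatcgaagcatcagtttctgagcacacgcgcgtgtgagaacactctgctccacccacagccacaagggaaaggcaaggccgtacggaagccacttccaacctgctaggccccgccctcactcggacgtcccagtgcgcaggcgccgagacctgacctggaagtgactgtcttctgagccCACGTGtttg
Nop2, chr6:125131633-125131932, plus strand: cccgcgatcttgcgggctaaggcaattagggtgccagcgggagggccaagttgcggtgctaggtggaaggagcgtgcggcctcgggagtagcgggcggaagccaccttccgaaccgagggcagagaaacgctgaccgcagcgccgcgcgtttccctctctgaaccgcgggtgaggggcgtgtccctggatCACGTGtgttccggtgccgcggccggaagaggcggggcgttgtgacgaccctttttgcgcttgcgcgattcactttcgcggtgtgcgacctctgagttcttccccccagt
Pes1, chr11:3963725-3964024, plus strand: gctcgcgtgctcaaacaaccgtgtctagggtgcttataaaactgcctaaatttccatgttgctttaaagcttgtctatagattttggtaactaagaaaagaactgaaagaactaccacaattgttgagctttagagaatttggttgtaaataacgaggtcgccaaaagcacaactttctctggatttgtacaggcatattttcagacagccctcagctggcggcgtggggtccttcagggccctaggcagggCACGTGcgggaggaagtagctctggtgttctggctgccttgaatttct
Gar1, chr3:129831347-129831646, minus strand: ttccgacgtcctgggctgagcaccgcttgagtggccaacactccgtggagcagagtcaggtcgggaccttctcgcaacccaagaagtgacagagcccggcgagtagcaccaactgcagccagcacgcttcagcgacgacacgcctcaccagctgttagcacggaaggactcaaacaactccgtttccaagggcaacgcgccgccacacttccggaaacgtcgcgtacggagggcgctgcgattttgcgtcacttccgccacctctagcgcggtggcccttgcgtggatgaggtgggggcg
Nop10, chr2:112261676-112261975, plus strand: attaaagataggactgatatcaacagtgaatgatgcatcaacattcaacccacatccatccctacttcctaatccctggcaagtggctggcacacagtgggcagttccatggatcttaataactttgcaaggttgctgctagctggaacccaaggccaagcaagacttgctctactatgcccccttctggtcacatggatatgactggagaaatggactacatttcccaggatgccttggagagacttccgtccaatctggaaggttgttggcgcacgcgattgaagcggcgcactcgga
The E-box starts 60 bases before the start site in Nop2, and in the transcribed part, at bases 41 and 3, in Mybbp1a and Pes1.

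Of 11 genes for MYC, its relatives and partners, 3 rose, 2 fell and 6 were not called, shares near the 23.3% higher and 21.5% lower of all genes tested. Myc had 1004, 4262 and 957 counts in wild-type against 2626, 2635 and 2793 in the knockout. Wild-type library 2 was the highest of all 6, and the other two wild-type libraries lay below the knockout. The difference of 0.75 was not called (adjusted p = 0.21), but without wild-type library 2 it was 1.45 (adjusted p = 8.61e-06). In each of the 34 genes that rose, wild-type library 2 lay below all knockout libraries. These genes had no overlap between the groups, so they could not show the pattern of Myc. Rrp12, which was not called, had 596, 1003 and 591 counts in wild-type against 1173, 915 and 942 in the knockout. Its value in wild-type library 2 lay above knockout libraries 2 and 3. Among the ribosome biogenesis genes wild-type library 1 was the highest of its group for 25 and wild-type library 2 for 10. Whether these genes followed Myc was not tested. Max, the partner of MYC, had 1359, 2292 and 1480 against 2077, 1989 and 2242, a difference of 0.34 (adjusted p = 0.181). The Max difference became 0.57 (adjusted p = 0.00785) without wild-type library 2. Mycn had 93.0, 92.6 and 101 counts against 32.1, 85 and 33.6, a difference of -1.06 (adjusted p = 0.0568), which was called without knockout library 2 (-1.51, adjusted p = 0.0111), under upper quartile scaling (-1.20, adjusted p = 0.0475) and when libraries were weighted by array weights (-1.22, adjusted p = 0.0261). Mycl had 223, 210 and 122 against 297, 420 and 327, a difference of 0.94 (adjusted p = 0.0152). That call was lost without wild-type library 3 (0.67, adjusted p = 0.0503) or without knockout library 2 (0.80, adjusted p = 0.0707). Without wild-type libraries 2 and 3 the Mycl difference was 0.62.

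The MAX partners that oppose MYC went both ways. Mxd1 had 1153, 1014 and 1305 counts in wild-type against 6691, 3919 and 7838 in the knockout, a log2 difference of 2.36 (adjusted p = 2.65e-05). Mxd4 had 4840, 3740 and 3432 against 1374, 1656 and 1668, a difference of -1.34 (adjusted p = 9.72e-05). Mxi1 had 1066, 1003 and 899 against 667, 729 and 792, a difference of -0.44 (adjusted p = 0.0318). The Mxi1 call was lost without wild-type library 1 or 2 or knockout library 1 or 2 (adjusted p from 0.0577 to 0.139). Mlx, a partner of the MYC-like metabolic regulators, had 996, 982 and 857 against 1864, 1450 and 1899, a difference of 0.87 (adjusted p = 0.00109). Mnt, Mga and Mxd3 were not called, with differences of 0.11, 0.14 and 0.01. The sign of each turned under other scalings or weights, or, for Mxd3, without wild-type library 2 (-0.028) or knockout library 2 (-0.34).

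**Figure D4:**
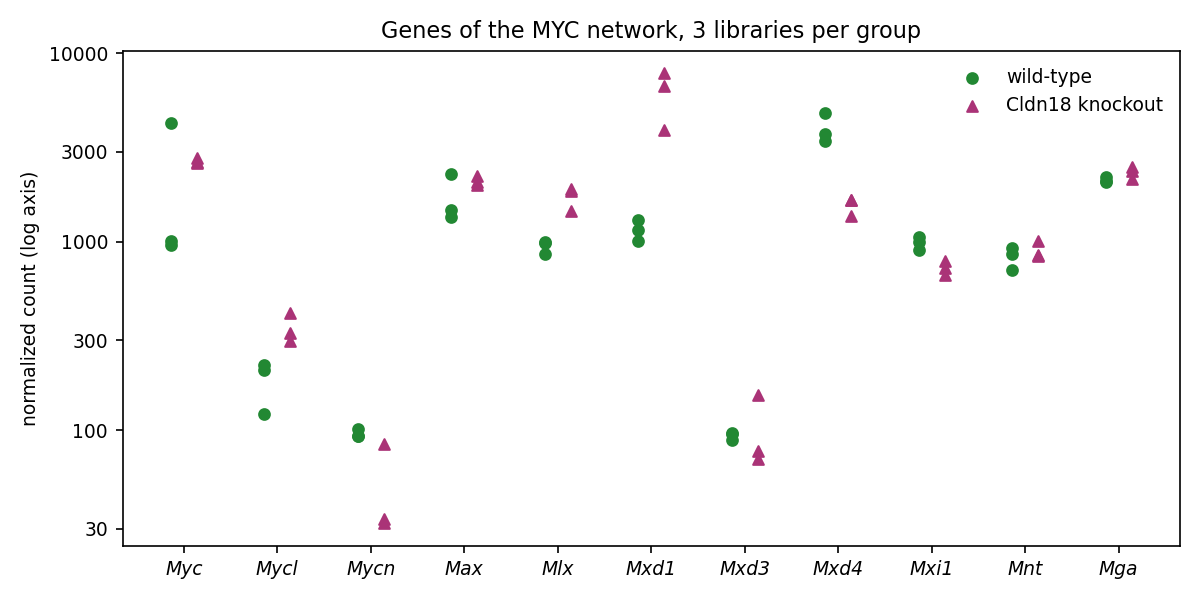
Normalized counts of the MYC network genes on a log axis, with 3 wild-type libraries (circles) and 3 knockout libraries (triangles) per gene. One wild-type library, at 4262 counts, stands above the knockout libraries for Myc, while the groups of Mxd1 and Mxd4 lie apart in opposite directions.

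Most genes of a wider list of the pathway, with none of the 36 genes in it, rose as well. Of all genes tested, 23.3% were called higher, 21.5% lower, and 11.2% higher by at least 1. The wider list was chosen with earlier results of these data known. Of its 149 genes outside the MYC network 147 were in the table and tested, of which 123 rose, 2 fell and 22 were not called. The median log2 difference was 0.89, and 49 rose by at least 1. When 1 library was left out, 103 to 125 were called higher. Among other subunits and factors of RNA polymerase I, 12 of 17 rose, with a median of 0.72. Polr1e, a subunit that aids initiation, had 229, 153 and 176 counts in wild-type against 552, 463 and 538 in the knockout, a difference of 1.49. Rrn3, the factor that recruits the enzyme to the ribosomal RNA genes, had 1251, 1037 and 1182 against 2184, 1847 and 1929, a difference of 0.78. Ubtf, which binds the ribosomal RNA gene itself, had 3894, 3749 and 3093 against 5430, 4903 and 5153, a difference of 0.53. Other rises were 1.43 for Taf1d, 1.40 for Cd3eap, 0.90 for Twistnb, 0.89 for Polr2e, 0.83 for Taf1a, 0.73 for Polr2h, 0.72 for Polr1d, 0.63 for Znrd1 and 0.49 for Polr2f. Those not called were Polr2k at 0.42, Taf1c at 0.36, Ttf1 at 0.35, Polr2l at -0.08 and Taf1b at -0.18.

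In the other role groups of the wider list most genes rose too, against 23.3% of all genes tested. Of small subunit factors 41 of 44 rose, with a median of 0.90, led by Rcl1 (1.76), Noc4l (1.5) and Utp11l (1.31). Of large subunit factors 44 of 52 rose, with a median of 0.91, led by Mrto4 (2.02), Rrp15 (1.89) and Ppan (1.56). Mrto4, an assembly factor of the ribosomal stalk, had 431, 501 and 370 counts in wild-type against 2030, 1537 and 1723 in the knockout. Of 11 genes for snoRNP assembly 10 rose, with a median of 0.97, led by Ruvbl1 (1.61), Shq1 (1.29) and Ruvbl2 (1.23). Shq1, a chaperone of dyskerin, had 137, 194 and 174 against 406, 411 and 406. Thus the dyskerin chaperone and 3 of 4 H/ACA proteins rose, while Nop10 was not called. Of 23 genes for the exosome and RNase MRP, which trim and cut ribosomal RNA precursors, 16 rose and 2 fell, with a median of 0.89. Exosc2 (1.86), Pop1 (1.73) and Dis3 (1.59) led the rises. Rpp21, a subunit of RNase P that was listed with this group, fell from 978, 757 and 720 to 412, 409 and 420 counts. Its difference was -0.97 (adjusted p = 0.000963). Exosc5, an exosome core subunit, fell from 1118, 866 and 755 to 614, 621 and 657, a difference of -0.51 (adjusted p = 0.0313).

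**Figure D5:**
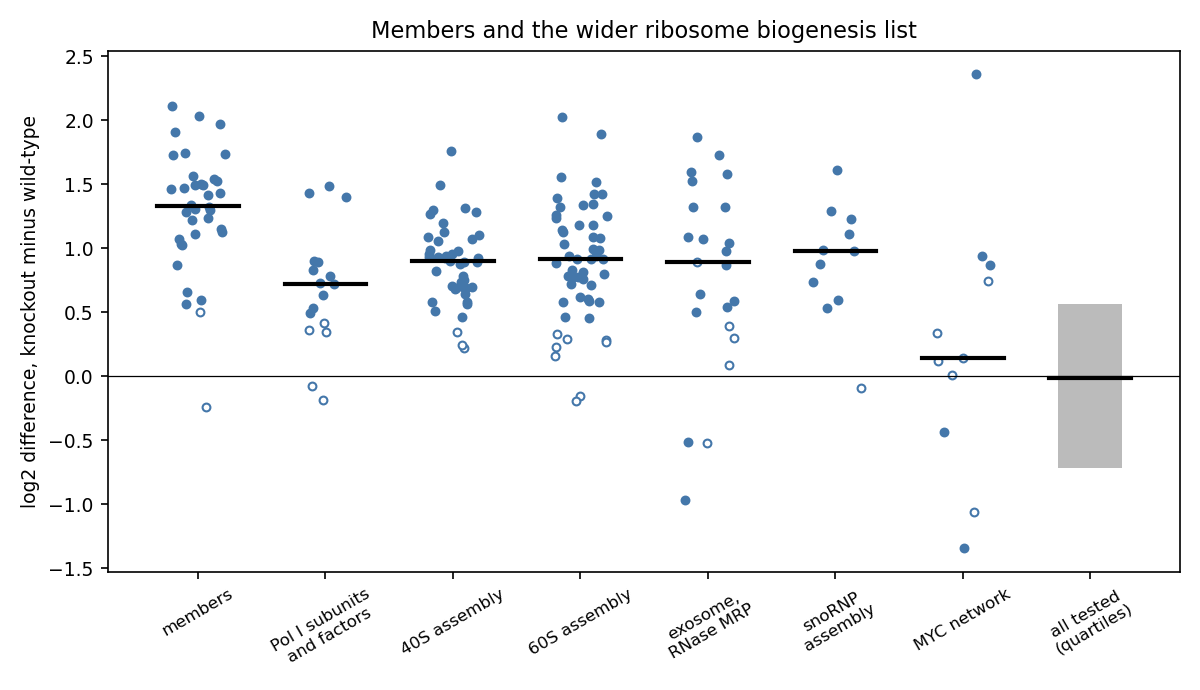
Log2 differences between knockout and wild-type, 1 point per gene, for the 36 genes and the role groups of the wider list. The 36 genes have a median of 1.33, the pathway groups of the wider list have medians from 0.72 to 0.97, and the MYC network has one of 0.14.

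The product of the pathway, ribosomal RNA, could be read only in part. The 183 rows annotated as ribosomal RNA or overlapping it took 45.4%, 38.7% and 38.6% of reads in wild-type against 41.0%, 40.9% and 41.3% in the knockout (exact permutation test, two-sided, p = 1). The means were 40.9% ± 3.9 and 41.1% ± 0.17 (SD, n = 3), and the sign of their difference turned without wild-type library 2 (-0.946 percentage points) or 3 (-0.991). Nearly all of these reads lay at Gm26924, and how much ribosomal RNA remains in a library also depends on its preparation, which the labels describe only as standard. The 180 rows named n-R5s together took a mean of 0.000562% of reads in wild-type against 0.000529% in the knockout (exact permutation p = 0.9). A further row of the 183 differed between the groups. Gm26917, annotated by GENCODE as a long noncoding RNA on the plus strand of chromosome 17 from 39843013 to 39846341 (mm10), is known to lie within a copy of the ribosomal RNA precursor. Its share of reads was 0.0613%, 0.0505% and 0.0471% in wild-type against 0.210%, 0.203% and 0.179% in the knockout, with no overlap (exact permutation p = 0.1). The row for the small RNA that pairs with the large subunit RNA, n-R5-8s1, took 0.00387%, 0.00317% and 0.00296% in wild-type against 0.00757%, 0.00642% and 0.00753% in the knockout, also with no overlap (exact permutation p = 0.1). Whether reads at these rows come from precursor or mature ribosomal RNA was not tested.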

How the data were processed

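RNA of 3 wild-type and 3 Cldn18 knockout samples was sequenced, and samples were grouped by their titles. The tools STAR, featureCounts and DESeq and the mm10 build are named per the submitters' processing notes. Their versions, the annotation and the strandedness are not stated there or in other sources used here. The deposited values are normalized counts, a signal with no negative values, 1 column per sample. Dividing by 1 number per library gave whole reads for 100% of values, within 0.05 reads. The authors also deposited a comparison table with group means, the ratio of these means and p-values, used only as an alternative.

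Genes with a normalized count of at least 10 in at least 3 libraries (17432) were tested in R 4.3.3 with limma 3.58.1 on the log2 of the normalized count plus a pseudocount of 1. The variance prior followed the mean (eBayes trend), tests were two-sided, and p-values were adjusted by Benjamini and Hochberg over all of these genes. The call was an adjusted p under 0.05. Differences are on this log scale, where changes of low genes are understated. edgeR 4.0.16 and DESeq2 1.42.0 on the recovered reads were alternatives, as were other scalings, filters, pseudocounts, variance models and sets of libraries. Genes, exons and small nucleolar RNAs came from GENCODE vM21, and levels per kilobase use the union of annotated exons. This union can be longer than each transcript of the gene, so ranks per kilobase depend on the annotation. Pseudogene copies were found with blastn 2.17.0 at an identity of at least 85% over at least 150 bases. Promoters came from RefSeq and 5 genes had none. The procedure was tested on simulated data.

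The members and lists were chosen with earlier results of these data known. All members are named. Of the wider list, all RNA polymerase I and MYC network genes are named, with up to 3 called genes per direction and other role group, by size of difference, among those whose groups do not overlap.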

Additional observations from a re-analysis of the deposited data

How the results depend on the processing

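In 20 refits with another pseudocount, filter, scaling, variance model, test or set of libraries and in the authors' deposited table, 33 of the 36 genes were called the same way, the exceptions being Polr1c, Nop10 and Rrp12. The count of members higher was 34 to 35 when 1 library was left out, the count lower was 0 to 0, and the median log2 difference was 1.31 to 1.41. The authors' deposited table had 33 higher. With upper quartile scaling the median was 1.19, and with this or with quantile normalization 1 member (Nop10) was lower. Over all genes tested, 3138 to 4379 were higher and 2969 to 3899 lower when 1 library was left out, 2488 were lower without wild-type libraries 2 and 3 (a fit that takes the spread of the knockout libraries for the lone wild-type library), and 2025 in the authors' deposited table. Of the wider list 103 to 125 were higher and 1 to 2 lower when 1 library was left out, and 1 was lower with eBayes without a trend and in the authors' deposited table. The share of reads at ribosomal RNA rows differed by -0.991 to 2.43 percentage points when 1 library was left out. Signs turned for 3 genes that were not called: Mnt (-0.023 with upper quartile scaling, -0.011 with quantile normalization), Mga (-0.0048 with quantile normalization) and Mxd3 (-0.13 with upper quartile scaling, -0.065 with array weights, -0.039 without wild-type libraries 2 and 3, and -0.34 to 0.22 when 1 library was left out). The Mxi1 call was also lost with no filter, with eBayes without a trend, with the replicate block and in the authors' deposited table (adjusted p = 0.0614, 0.0644, 0.0732 and 0.262). Rrp12 was also called with array weights (adjusted p = 0.0136) and with scaling by total reads outside Gm26924 and mitochondrial genes (adjusted p = 0.0424). Myc was also called with array weights (0.96, adjusted p = 0.0366). Without wild-type libraries 2 and 3 the difference was 1.42 for Myc and 0.63 for Max. Restricting the count to genes with no pseudogene copy gave 15 higher, and to genes with no overlap on the opposite strand 18, since fewer genes were counted. The second restriction and the adding of pseudogene rows were chosen after seeing the data. With the replicate number as a block 34 members were higher, with a median of 1.33, and 3726 of all genes were higher and 3626 lower. Same-numbered libraries did not deviate together (correlations of -0.00366, 0.0214 and -0.173, and 0 libraries correlating best with their own number). These values gave no sign of pairing by number, but 3 libraries per group cannot exclude it.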
